A study of Mus musculus with 6 samples.

Results

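The antioxidant, glutathione and NRF2 target genes of the stria vascularis were examined in knockout and heterozygous mice. The set holds 50 genes, chosen by exact gene symbol from the platform annotation: the regulators NRF2 (Nfe2l2) and Keap1, the enzymes that remove superoxide and peroxides, the glutathione and thioredoxin systems and known NRF2 targets. Of the 50 genes, 45 had at least 1 probe set with exactly that symbol, 91 probe sets in all. The probes of a probe set are short and mostly match the 3' part of 1 transcript, and the signal of the set is fluorescence intensity on a linear scale. After removal of dim probe sets, with a signal under about 43.9, 79 probe sets of 43 genes were tested, among 27022 probe sets and 12428 genes in all.

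The stria vascularis is the vascularised epithelium of the cochlear lateral wall that secretes potassium into the endolymph. Its RNA was hybridised to Affymetrix mouse genome arrays at postnatal day 10. There were 3 arrays of mice with both copies of Slc26a4 inactive (knockout replicates 2, 4 and 6) and 3 of mice with 1 working copy (heterozygous replicates 1, 3 and 5). Slc26a4 encodes pendrin, an anion exchanger whose loss causes deafness. All samples carry at least 1 disrupted copy, so a normal mouse with 2 intact copies is not part of the comparison. The labels give no strain, sex or deleted exon, and do not say whether an array holds 1 animal or a pool. The spread that the p-values rest on is that between these arrays, and it may be partly technical. Fewer cells of a type and less RNA per cell cannot be told apart in such bulk RNA.

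Slc26a4 gave a signal of 75.5, 106 and 154 in knockout replicates 2, 4 and 6, against 221, 248 and 1006 in heterozygous replicates 1, 3 and 5, on its only probe set, so the groups did not overlap. The position of the probes relative to the disrupted part of the gene is not given in the sources used here. Most markers of the strial cells passed the filter: 11 of 12 intermediate cell, 7 of 9 marginal cell and 7 of 7 basal cell genes. So did 10 of 10 fibrocyte, 10 of 11 cartilage and bone, 14 of 14 macrophage and 10 of 10 endothelial genes. Fewer passed for Schwann cells and neurons (3 of 9) and for hair cells (1 of 6). Knockout replicate 4 stood apart, with a rank correlation of 0.941 to 0.960 with the other arrays over all probe sets, where pairs of the remaining arrays reached up to 0.975. It was the highest of the 6 arrays for 22.7% of all genes and the lowest for 36.2%, the largest share of any array on both sides. Its endothelial markers were low as well. Of 10 such markers 9 had their lowest value there, none of them at 0, and their summed signal was 3149 in that array, against 6774 and above in the other knockout arrays and 6521 to 11530 in heterozygous arrays. Values without that array are given beside most of the results.

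NRF2 is a transcription factor that Keap1 holds in the cytoplasm and hands over for degradation. Oxidants and electrophiles modify Keap1, NRF2 then accumulates and binds antioxidant response elements, and genes for glutathione synthesis, thioredoxin recycling, NADPH supply and detoxification are transcribed. The stria is among the most metabolically active tissues of the cochlea, and oxidative stress has been studied there in models of pendrin loss.

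The antioxidant response element has the core TGACNNNGC, or GCNNNGTCA when it lies on the opposite strand. This core was searched on both strands in windows from 250 bases before to 50 bases after the annotated gene start (RefSeq, GRCm38.p6). A window was found for 44 of the 50 genes, and 13 of them (29.5%) held the core, against 14.0% of 27025 genes with a window and 17.1% of the 10032 tested genes with a window. Since the set was put together partly from known NRF2 targets, this share follows in part from how its genes were chosen. The genes with a match were Nfe2l2, Srxn1, Gclm, Gstm5, Gsta3, Prdx1, Pgd, Mgst1, Me1, Ggt1, Txnrd1, Sod1 and G6pdx. A match is a description of the letters and not a bound site. The 250 bases before the start are shown for the tested genes with a match there and the smallest p of the genotype comparison, with the core in capitals. They show the bases around the core, and how alike these are between the genes was not measured. The matches of Pgd and Srxn1 lie after the start, and those windows are not printed.
Gclm (chr3:122245307-122245556, plus strand): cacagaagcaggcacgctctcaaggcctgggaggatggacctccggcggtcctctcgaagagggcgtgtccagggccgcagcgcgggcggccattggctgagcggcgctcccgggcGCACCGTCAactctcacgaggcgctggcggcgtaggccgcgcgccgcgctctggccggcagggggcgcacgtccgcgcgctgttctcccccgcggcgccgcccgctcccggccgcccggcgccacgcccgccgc
Mgst1 (chr6:138140277-138140526, plus strand): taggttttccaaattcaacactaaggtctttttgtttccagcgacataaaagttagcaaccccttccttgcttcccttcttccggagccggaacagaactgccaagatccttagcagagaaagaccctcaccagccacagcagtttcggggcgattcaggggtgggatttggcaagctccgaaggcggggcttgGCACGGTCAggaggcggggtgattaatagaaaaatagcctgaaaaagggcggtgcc
Sod1 (chr16:90220512-90220761, plus strand): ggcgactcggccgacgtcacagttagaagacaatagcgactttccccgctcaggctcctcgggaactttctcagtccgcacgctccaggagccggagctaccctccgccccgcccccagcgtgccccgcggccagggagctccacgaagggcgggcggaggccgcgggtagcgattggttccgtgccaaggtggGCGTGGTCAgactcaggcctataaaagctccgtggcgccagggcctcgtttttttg
Nfe2l2 (chr2:75704664-75704913, minus strand): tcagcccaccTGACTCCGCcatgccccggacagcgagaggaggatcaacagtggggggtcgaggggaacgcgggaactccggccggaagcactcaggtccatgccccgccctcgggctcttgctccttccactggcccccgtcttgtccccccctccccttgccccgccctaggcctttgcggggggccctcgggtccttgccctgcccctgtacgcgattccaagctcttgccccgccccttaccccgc
The match begins 134 bases before the start in Gclm, 56 in Mgst1 and in Sod1, and 240 in Nfe2l2. It reads on the strand opposite to the gene in Gclm, Mgst1 and Sod1, and on the gene's own strand in Nfe2l2.

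The comparison asked whether transcripts of these genes differed in level between knockout and heterozygous stria. None of the 79 tested probe sets had a limma adjusted p under 0.05, where 0.00370% of all tested probe sets did, which is a single one. The smallest adjusted p among them was 0.370. Without knockout replicate 4 again none was called, beside 0.0481% of all tested probe sets. Before adjustment, 1 gene of 43 was higher (2.33%, background 3.15%) and 2 were lower (4.65%, background 3.20%) in knockout samples at p under 0.05, shares close to those of all genes. Leaving out that array gave 1 higher and 1 lower (2.33% each), beside 2.88% and 2.84%. Differences were small. They ran from -0.59 to 0.34 on the log2 scale with a median of -0.11, where the median of all 12428 genes was -0.04. Fold changes are on the log2(signal + 16) scale, so the change of a dim gene is understated.

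The intervals set limits on how large a difference these arrays leave room for. For 41 of the 43 genes the 95% interval of the log2 difference lay within a 2-fold change in either direction, and for 30 within a 1.5-fold change. Msra and Gpx2 were the genes whose interval went past 2-fold. With knockout replicate 4 left out the interval stayed within 2-fold for 42 genes, the exception being Gpx2. The median standard error was 0.14, against 0.19 over all genes. These are intervals for single genes, with no adjustment for their number.

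**Figure D1:**
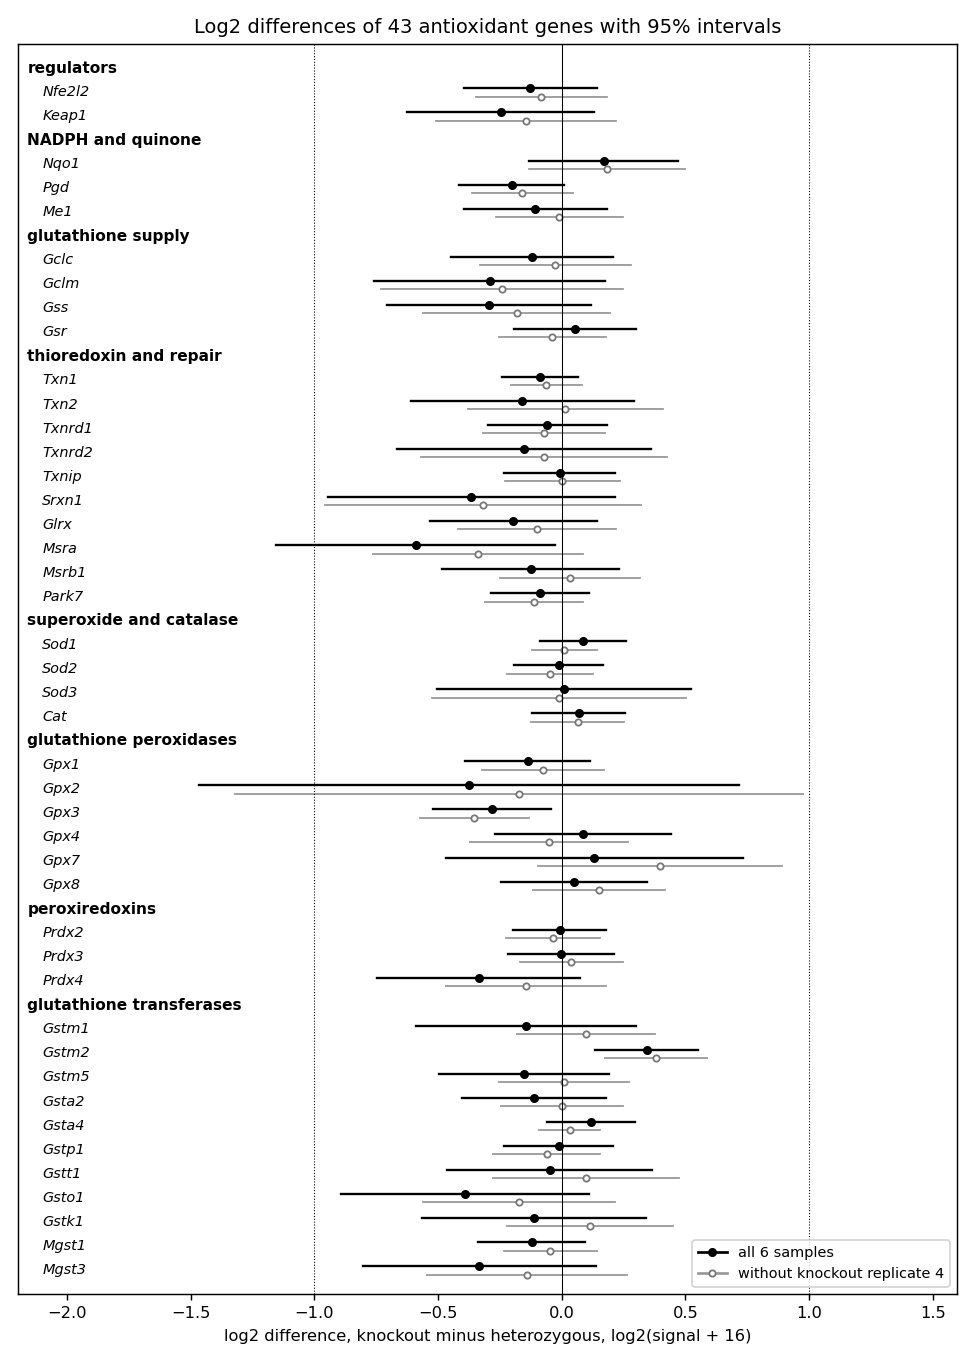
Log2 difference (knockout minus heterozygous, horizontal axis, log2(signal + 16)) of the 43 tested genes, grouped by role, with 95% intervals from limma. Black points and lines use all 6 samples, grey lines with open points leave out knockout replicate 4, and dotted lines mark a 2-fold change. With all 6 samples, the intervals of Gpx2 and Msra reach past the left dotted line, and those of Gstm2, Gpx3 and Msra do not cross 0.

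More genes of the set lay below than above 0, and this excess was smaller without knockout replicate 4. With all samples 33 of 43 genes (76.7%) were lower in knockout samples, beside a background of 56.8% of all genes. When it was left out 27 of 43 (62.8%) were lower, beside 50.7%, and the median was -0.05. In knockout replicate 4 the median deviation of the 43 genes from the heterozygous mean was -0.29 (log2), against -0.00037 in knockout replicate 2 and -0.06 in knockout replicate 6. The same deviation over all genes was -0.09 in knockout replicate 4. It was the lowest array for 26 of the 43 genes (60.5%), where 36.2% of all genes were lowest there. Other marker lists also moved in that array. All 4 tested granulocyte markers were lowest there, with a median deviation of -2.25, as were 5 of 8 pericyte and smooth muscle markers, with -0.70, and 9 of 10 endothelial markers, with -1.32. The 10 cartilage and bone markers had a median deviation of 1.10, but this was not particular to that array. Their median log2 difference was 0.97 with all samples and 1.06 without knockout replicate 4. None of the markers in these lists was at 0, and their part in the shift of the 43 genes was not tested.

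**Figure D2:**
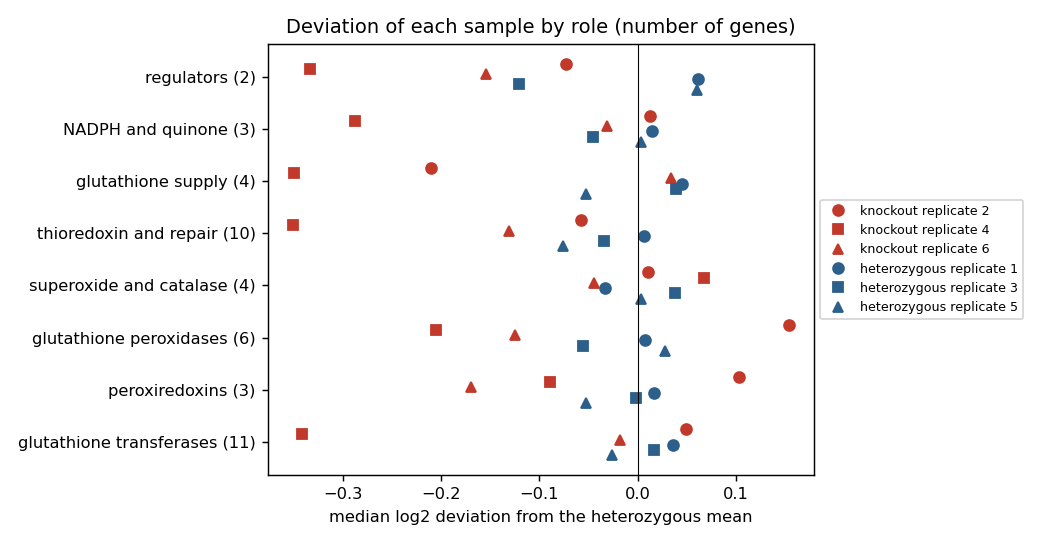
Median log2 deviation from the heterozygous mean (horizontal axis) of the tested genes in each role, for knockout samples (red) and heterozygous samples (blue), with the replicate shown by symbol. Knockout replicate 4 is the lowest sample in 6 of the 8 roles, from -0.20 to -0.35, and the highest, at 0.07, for superoxide and catalase genes.

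The regulators came first in the pathway and both were measured well above the filter. Nfe2l2 had signals of 1615, 1439 and 1550 in knockout replicates 2, 4 and 6, against 1701, 1666 and 1660 in heterozygous replicates 1, 3 and 5. Every knockout sample was below every heterozygous one, by little: the log2 difference was -0.13 ± 0.12 (SE), with a 95% interval from -0.40 to 0.14, and was not called (limma adjusted p = 0.726). It was -0.08 without knockout replicate 4. The dimmer probe set of Nfe2l2 gave -0.07, or -0.12 without that array, with overlapping groups. Keap1, the NRF2 adaptor for degradation, had 965, 751 and 898 in knockout samples, against 1106, 874 and 1132 in heterozygous samples. The groups overlapped at heterozygous replicate 3, and the log2 difference of -0.25 ± 0.17 (SE) was not called (limma adjusted p = 0.615). It was -0.15 without knockout replicate 4. Keap1's other probe set was too dim to test.

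Enzymes that supply NADPH or use it on quinones split in direction. Nqo1, the quinone reductase that serves as a standard readout of NRF2 activity, had 1514, 1337 and 1253 in knockout samples, against 1257, 1165 and 1214 in heterozygous samples. Only the lowest knockout value lay inside the heterozygous range, and the log2 difference of 0.17 ± 0.14 (SE, limma adjusted p = 0.670) became -0.03 when each array was centred on its median. Such centring lowered the difference of every gene by the same amount. Pgd, the second NADPH-forming enzyme of the pentose phosphate pathway, had 4237, 4136 and 4830 in knockout samples, against 4832, 5277 and 5057 in heterozygous samples. The groups were separated by the narrow gap between 4830 and 4832, and the log2 difference was -0.20 ± 0.09 (SE, limma adjusted p = 0.444). All 4 tested probe sets of Pgd gave a negative difference, from -0.41 to -0.16, or from -0.16 to -0.13 without knockout replicate 4. The groups overlapped on all of them but the brightest. Me1, the cytosolic malic enzyme, which also forms NADPH, had a log2 difference of -0.11, or -0.0093 without knockout replicate 4. G6pdx was not analysed here.

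Glutathione is built from glutamate, cysteine and glycine, first by glutamate-cysteine ligase (catalytic subunit Gclc, modifier subunit Gclm) and then by glutathione synthetase (Gss). Gclc had 1189, 1006 and 1274 in knockout samples, against 1294, 1318 and 1152 in heterozygous samples. The groups overlapped, and its log2 difference was -0.12 ± 0.15 (SE, limma adjusted p = 0.793), while its other probe set gave 0.06. They gave -0.03 and 0.23 without knockout replicate 4. Gclm had 455, 529 and 755 in knockout samples, against 657, 771 and 670 in heterozygous samples. Knockout replicates 2 and 4 were below all heterozygous samples and replicate 6 was not, with a log2 difference of -0.29 ± 0.21 (SE, limma adjusted p = 0.629). It was -0.14 without knockout replicate 2 and -0.49 without knockout replicate 6.

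Gss had 423, 362 and 500 in knockout samples, against 540, 526 and 505 in heterozygous samples. Its groups did not overlap, the highest knockout value lying just under the lowest heterozygous one, and the log2 difference was -0.29 ± 0.18 (SE, limma adjusted p = 0.579), or -0.18 without knockout replicate 4. The second probe set of Gss gave -0.32, or -0.20 without it, with overlapping groups. Gsr, the reductase that returns oxidised glutathione to its reduced form, had a log2 difference of 0.05, or -0.04 without knockout replicate 4, and overlapping groups. Slc7a11, the cystine importer and an NRF2 target in other cells, was under the filter on both probe sets, with signals from 1.55 to 29.0 in knockout samples and from 0.396 to 23.9 in heterozygous samples, so no difference could be measured. Ggt1 was not analysed here.

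**Figure D3:**
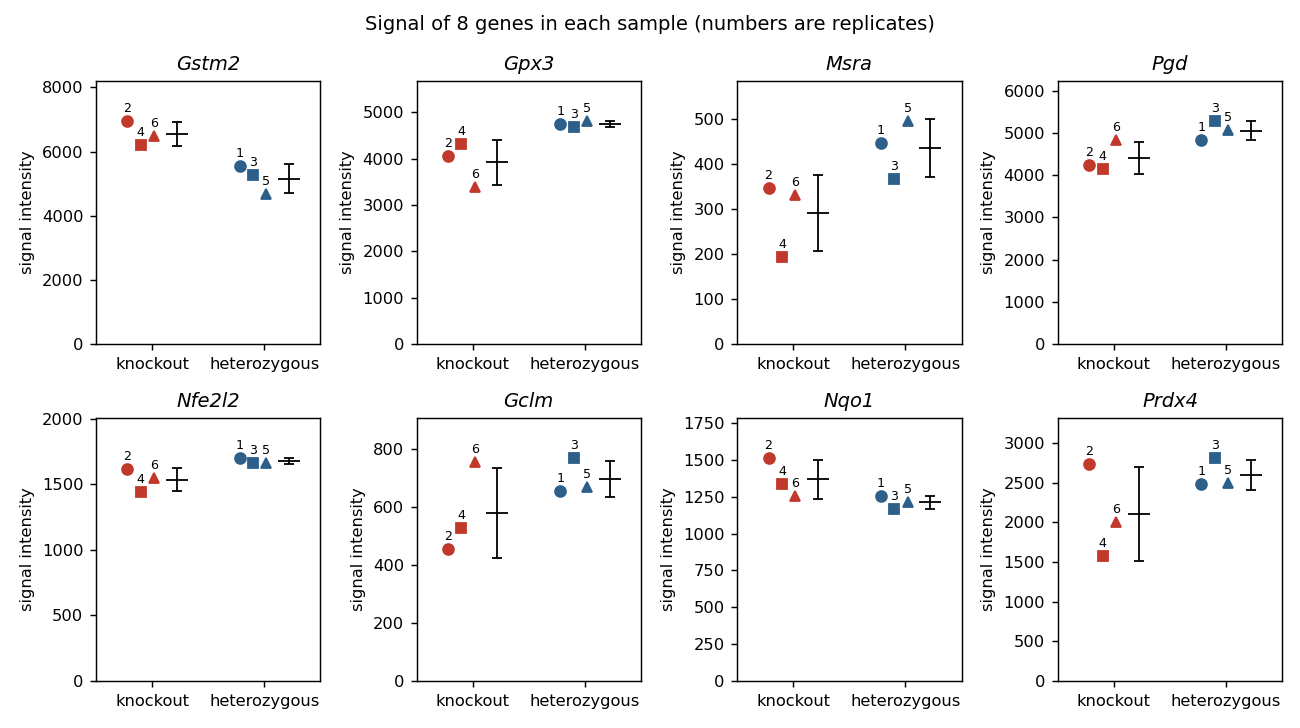
Signal intensity (vertical axis, linear and starting at 0) of 8 genes in each knockout sample (red) and heterozygous sample (blue), numbered by replicate; horizontal marks with bars are mean ± SD of 3 samples. All knockout points lie above the heterozygous ones for Gstm2, below them for Gpx3, Msra, Pgd and Nfe2l2, and mixed with them for Gclm, Nqo1 and Prdx4.

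The thioredoxin system passes electrons from NADPH through thioredoxin reductase (Txnrd1 in the cytosol, Txnrd2 in mitochondria) to thioredoxin (Txn1, Txn2), which reduces peroxiredoxins and the methionine sulfoxide reductases that repair oxidised methionine. All 10 genes tested in this group, including the related Glrx and Park7, had a negative difference with all samples, with a median of -0.14, and 7 of 10 did so without knockout replicate 4, with a median of -0.07. None passed the test. Txn1 had 8234, 7708 and 8027 in knockout samples, against 8644, 8460 and 8357 in heterozygous samples. The groups did not overlap, and the log2 difference was -0.09 ± 0.07 (SE, limma adjusted p = 0.663). Txn1's dimmer probe set gave 0.31, or -0.02 without knockout replicate 4, with overlapping groups. Txnrd1 had 2406, 2573 and 2598 in knockout samples, against 2603, 2469 and 2825 in heterozygous samples, and a log2 difference of -0.06 ± 0.11 (SE, limma adjusted p = 0.874). Its groups overlapped.

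Msra, which repairs one stereoisomer of methionine sulfoxide, had the largest absolute difference when each gene was read from its brightest probe set. Its signals were 347, 194 and 332 in knockout samples, against 446, 368 and 495 in heterozygous samples. Every knockout sample lay below every heterozygous one, with knockout replicate 4 far below the rest. Msra averaged 291 ± 84.4 in knockout samples and 436 ± 64.2 in heterozygous samples (mean ± SD, n = 3 each). The log2 difference was -0.59 ± 0.25 (SE) with a 95% interval from -1.15 to -0.03 (unadjusted p = 0.0414, limma adjusted p = 0.412). The difference was -0.34 without knockout replicate 4 (limma, unadjusted p = 0.107). Msrb1, a selenoprotein that repairs the other stereoisomer, had -0.13, or 0.03 without that array.

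Txnip, which binds and inhibits thioredoxin and responds to glucose, had 4216, 4303 and 4586 in knockout samples, against 4288, 4898 and 4030 in heterozygous samples. The knockout values lay inside the heterozygous range, and the log2 difference was -0.0083 ± 0.10 (SE, limma adjusted p = 0.984). The sign of the Txnip difference turned with array weights and without knockout replicate 2 or 4 or heterozygous replicate 3, between -0.21 and 0.07 over all alternatives.

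Srxn1, or sulfiredoxin, which reactivates over-oxidised peroxiredoxins and is induced through NRF2, was set by 1 heterozygous sample. Its brightest probe set had 1500, 1376 and 1547 in knockout samples, against 3136, 1408 and 1555 in heterozygous samples. Heterozygous replicate 1 was 2.12 times the mean of the other 5 samples, which otherwise lay together. The other probe sets showed the same sample high, 2.25, 3.35 and 4.09 times the mean of the other 5. The log2 difference of -0.37 ± 0.26 (SE, limma adjusted p = 0.627) was -0.0069 without heterozygous replicate 1. In heterozygous replicate 1 the brightest probe sets of the NRF2 targets Nqo1 (1257), Txnrd1 (2603) and Gclm (657) lay within the range of the other 5 samples. Gclm's dimmer probe set was highest there, at 497 against 264 to 492. So was the dimmest of Txnrd1, at 101 against 58.5 to 97.2, while its remaining probe set (166) was within the range. Gclc and Gsr were within the range on their brightest probe sets and highest there on their dimmer ones. These had 1007 against 544 to 977 for Gclc and 141 against 96.7 to 132 for Gsr. Of the 43 tested genes 8 had their highest value in heterozygous replicate 1, Srxn1, Mgst3 and Glrx among them, against 3 to 10 in each other array.

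**Figure D4:**
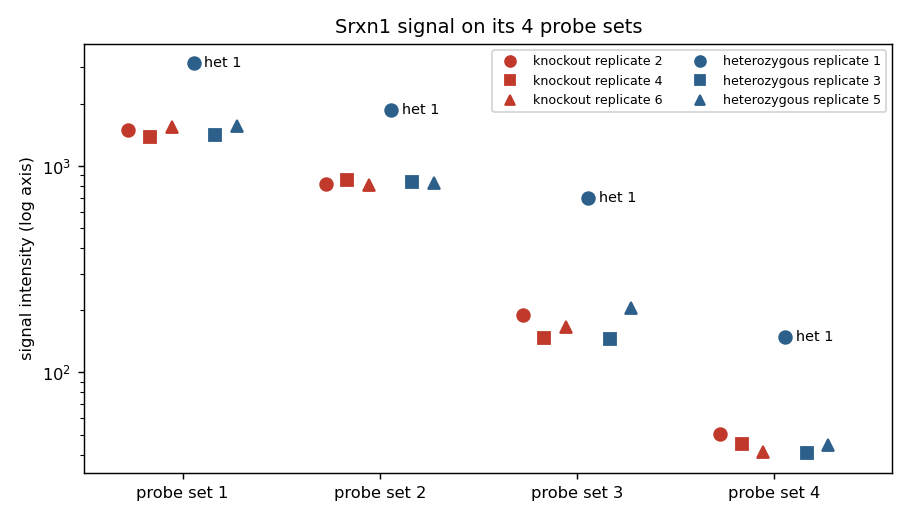
Signal intensity (vertical axis, log scale) of Srxn1 on its 4 probe sets, ordered by brightness, in knockout samples (red) and heterozygous samples (blue), with the replicate shown by symbol. Heterozygous replicate 1 is above the other 5 samples on each probe set, by 2.12 to 4.09 times their mean.

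The enzymes that remove superoxide and hydrogen peroxide had small differences. Sod1, the cytosolic copper-zinc superoxide dismutase, had 9844, 11655 and 10063 in knockout samples, against 9738, 10092 and 9816 in heterozygous samples. The groups overlapped, and the log2 difference was 0.09 ± 0.08 (SE, limma adjusted p = 0.715), with a sign that turned under quantile normalisation (-0.06) and median centring (-0.11). It was 0.01 without knockout replicate 4. Sod2, the mitochondrial manganese enzyme, had 6476, 6637 and 5892 in knockout samples, against 6193, 6585 and 6372 in heterozygous samples. Its log2 difference was -0.01 ± 0.08 (SE, limma adjusted p = 0.967), with a 95% interval from -0.19 to 0.17, and it was -0.05 without knockout replicate 4. Cat, the peroxisomal catalase, had 4609, 4870 and 5049 in knockout samples, against 4536, 4656 and 4640 in heterozygous samples. Its groups overlapped, with a log2 difference of 0.07 ± 0.08 (SE, limma adjusted p = 0.791) that was -0.13 under median centring. Sod3, the extracellular enzyme, gave 0.01 on a dim probe set, or -0.01 without knockout replicate 4, with signals between 145 and 206.

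Among the glutathione peroxidases, Gpx3 was the gene whose groups separated. Gpx3, the secreted form, had 4055, 4310 and 3385 in knockout samples, against 4735, 4677 and 4805 in heterozygous samples. The heterozygous values lay close together and all knockout values were below them. Gpx3 averaged 3917 ± 477 in knockout samples and 4739 ± 63.7 in heterozygous samples (mean ± SD, n = 3 each). The log2 difference was -0.28 ± 0.11 (SE) with a 95% interval from -0.52 to -0.04 (unadjusted p = 0.0253, limma adjusted p = 0.376). It was -0.35 without knockout replicate 4 (limma adjusted p = 0.441) and -0.18 without knockout replicate 6.

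Gpx1, the most widespread cytosolic form, had 4308, 3411 and 3466 in knockout samples, against 3967, 4299 and 3974 in heterozygous samples. Knockout replicate 2 was the highest of all 6 and the other knockout samples the lowest, and the log2 difference was -0.14 ± 0.11 (SE, limma adjusted p = 0.681). It was -0.24 without knockout replicate 2 and -0.08 without knockout replicate 4. Gpx4, which reduces lipid peroxides, Gpx7 and Gpx8, which act in the endoplasmic reticulum, had log2 differences of 0.09, 0.13 and 0.05. The sign of Gpx4 turned without knockout replicate 4, to -0.05, where Gpx7 had 0.40 and Gpx8 0.15. Gpx2, a form of epithelia, had 45.4, 35.8 and 85.8 in knockout samples, against 34.4, 52.9 and 188 in heterozygous samples. It was highest in heterozygous replicate 5. Its log2 difference was -0.38, or -0.17 without knockout replicate 4, and its 95% interval was the widest of the set, from -1.47 to 0.72. In that array 4 of the 5 tested root and sulcus cell markers were also at their highest, Slc26a4 (1006) and Aqp4 (772) among them. The summed signal of the 5 was 9493 to 12300 in knockout samples and 11240 to 19180 in heterozygous samples, with none at 0, and their part in the Gpx2 value was not tested. Slc26a4 is the disrupted gene, so this sum depends in part on the genotype itself.

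Of the peroxiredoxins, which reduce peroxides with electrons from thioredoxin, 3 could be tested and none was called. Prdx4, the form of the endoplasmic reticulum, had 2741, 1574 and 2008 in knockout samples, against 2483, 2814 and 2502 in heterozygous samples. Knockout replicates 4 and 6 were below all heterozygous samples and replicate 2 was within their range. The log2 difference of -0.33 ± 0.18 (SE, limma adjusted p = 0.513) was -0.14 without knockout replicate 4 and -0.54 without knockout replicate 2. Prdx2, a cytosolic form abundant in red cells, had 8803, 8444 and 7290 in knockout samples, against 8294, 8188 and 8114 in heterozygous samples. Its log2 difference was -0.0080 ± 0.08 (SE, limma adjusted p = 0.980), and its sign turned with array weights and without heterozygous replicate 1 or knockout replicate 6. It was -0.03 without knockout replicate 4. Mitochondrial Prdx3 had a log2 difference of -0.0040, or 0.04 without knockout replicate 4. The probe sets of Prdx1 carry a second symbol and were not used, and Prdx5 and Prdx6 were not analysed here.

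Glutathione transferases couple glutathione to electrophiles, and 11 of the 12 in the set were tested. The mu class gene Gstm2 had the smallest p of all 43 genes. Its signals were 6945, 6200 and 6476 in knockout samples, against 5536, 5271 and 4670 in heterozygous samples. Every knockout sample lay above every heterozygous one. Gstm2 averaged 6540 ± 377 in knockout samples and 5159 ± 444 in heterozygous samples (mean ± SD, n = 3 each). The log2 difference was 0.34 ± 0.09 (SE), or 1.27-fold, with a 95% interval from 0.14 to 0.55. This did not pass the test over all probe sets (unadjusted p = 0.00433, limma adjusted p = 0.370). Leaving out knockout replicate 4 gave 0.38 (unadjusted p = 0.00222, limma adjusted p = 0.397). The alternatives gave a limma adjusted p between 0.113 and 0.863, and a difference of 0.14 under median centring.

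The mu class genes are neighbours on mouse chromosome 3, and their values differed. Gstm1, the nearest one on one side, had a log2 difference of -0.14, with -0.60 and -0.12 on its other tested probe sets, and Gstm5 had -0.15. Gstm4, beyond Gstm1, had 0.12. These directions rested on knockout replicate 4, apart from that of the Gstm1 probe set at -0.60, which stayed negative. Leaving out that array gave 0.10, -0.28 and 0.16 for Gstm1, 0.01 for Gstm5 and -0.09 for Gstm4. Gstm3 and Gstm6, on the other side of Gstm2, had no tested probe set. Gstm7, the nearest tested gene there, had 780, 771 and 835 in knockout samples, against 673, 676 and 575 in heterozygous samples. Its groups did not overlap, with a log2 difference of 0.31 ± 0.16 (SE, limma adjusted p = 0.482), or 0.33 without knockout replicate 4. Gstm4 and Gstm7 are not in the set of 50, and Gstm7 was described with its values known. These paralogs are alike in sequence, and how far their probe sets pick up each other's transcripts is not given in the sources used here, so a value of 1 mu class gene is uncertain.

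Gsto1, an omega class enzyme that reduces mixed disulfides, had 414, 281 and 492 in knockout samples, against 506, 547 and 483 in heterozygous samples. The groups overlapped on this probe set and did not on the dimmer one, and the log2 differences were -0.39 ± 0.22 (SE, limma adjusted p = 0.533) and -0.55. They were -0.17 and -0.30 without knockout replicate 4. The remaining tested transferases, Gsta2, Gsta4, Gstp1, Gstt1, Gstk1, Mgst1 and Mgst3, had log2 differences from -0.33 (Mgst3, a microsomal enzyme) to 0.12 (Gsta4, which acts on lipid peroxidation products), all with overlapping groups. Leaving out knockout replicate 4, the range of these 7 was -0.14 (Mgst3) to 0.11 (Gstk1), with Gsta2, Gstt1 and Gstk1 changing sign and Gsta4 at 0.03. Of the 11 transferases 9 were lower with all samples and 4 without knockout replicate 4. Gsta3 was under the filter, with signals from 6.16 to 45.7 in knockout samples and from 2.39 to 61.2 in heterozygous samples.

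Counted over the set, with each gene read from its brightest probe set, groups did not overlap for 1 gene higher in knockout samples. This was Gstm2 (2.33%, background 6.05%). Groups did not overlap for 6 lower genes, namely Nfe2l2, Gss, Txn1, Gpx3, Pgd and Msra (14.0%, background 7.03%). With knockout replicate 4 left out there were 1 and 7, Park7 joining, beside a background of 9.80% and 9.95%. With all samples, groups overlapped on every other tested probe set of Nfe2l2, Gss, Txn1 and Pgd, while Gpx3 and Msra had only 1. On their brightest probe sets the 6 separated genes lay below 0 by 0.09 to 0.59 on the log2 scale. The count of lower ones was 13 without knockout replicate 2, where 1981 of 12386 genes in all were lower without overlap, and 10 without heterozygous replicate 3, where 1296 of 12367 were. That of higher ones was 5 without knockout replicate 6, where 1754 of 12387 genes in all were higher without overlap. It was 2 without knockout replicate 2 (1359 of 12386), heterozygous replicate 1 (1343 of 12390) or heterozygous replicate 3 (1042 of 12367). Counted over the 79 tested probe sets with all samples, 7 (8.86%) were lower without overlap, beside 5.99% of all tested probe sets. There was 1 higher without overlap (1.27%), beside 2985 of 27022 probe sets in all.

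Where a gene had several tested probe sets, they could be set against each other. Of 23 such genes 16 had the same sign on all of them. The 7 with both signs were Gclc, Txn1, Txnrd2, Sod1, Sod2, Cat and Glrx. The 9 tested genes with the response element core near their start had a median log2 difference of -0.13, and the 29 with a window but no match had -0.11. Without knockout replicate 4 these medians were -0.07 and -0.05. Sites outside the window were not searched and a match is not a bound site, so this split does not separate NRF2 targets from other genes.

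Other genes of the pathway were taken from a list of 65 further antioxidant and NRF2-related genes. Of these 55 were tested, 27 higher and 28 lower (background 56.8% lower), with a median log2 difference of -0.0081 and none called. At an unadjusted p under 0.05 there was 1 higher, Msrb3, and none lower, beside 3.15% and 3.20% of all genes. Leaving out knockout replicate 4 gave 4 higher, Msrb3, Chac1, Aldh3a1 and Gstt2, and none lower, beside 2.88% and 2.84%. The median of the list was then 0.06. With all samples, groups did not overlap for 4 higher genes and no lower ones, beside 6.05% and 7.03% of all genes. Msrb3, a methionine sulfoxide reductase needed for hearing, had 2650, 2633 and 3439 in knockout samples, against 1878, 2280 and 2119 in heterozygous samples. Its groups did not overlap, with a log2 difference of 0.46 ± 0.14 (SE, limma adjusted p = 0.370) that was 0.53 without knockout replicate 4. It lay on the side opposite to Msra. The next by p were Taldo1, a pentose phosphate enzyme, at -0.31, Gpx6, a glutathione peroxidase, at -0.60, and Chac1, which degrades glutathione, at 0.45. Leaving out knockout replicate 4 gave -0.16, -0.65 and 0.57.

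Hmox1, the haem oxygenase that NRF2 induces and macrophages express, was chosen after its values were seen. It had 831, 198 and 948 in knockout samples, against 816, 882 and 960 in heterozygous samples. Knockout replicate 4 alone was low, and the log2 difference of -0.69 (limma adjusted p = 0.614) was 0.0055 without it. The summed signal of 14 macrophage markers was 11540 in knockout replicate 4, against 14290 and above in the other knockout samples and 10600 to 14440 in heterozygous samples; 7 of the 14 had their lowest value in that array, none was at 0, and their part in the Hmox1 value was not tested.

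Enzymes that produce superoxide or hydrogen peroxide were listed as well, 23 in number, and 11 passed the filter. There were 6 higher and 5 lower (background 56.8% lower), with a median log2 difference of 0.01, and none was called. Maob, the mitochondrial monoamine oxidase that releases hydrogen peroxide, had 799, 669 and 758 in knockout samples, against 1036, 1019 and 939 in heterozygous samples. Its groups did not overlap, with a log2 difference of -0.42 ± 0.15 (SE, unadjusted p = 0.0190, limma adjusted p = 0.370), or -0.35 without knockout replicate 4. The next by p were Maoa at -0.32, Noxo1, an organiser of NADPH oxidases, at 0.25, and Ncf4, a phagocyte oxidase subunit, at 0.30, all with overlapping groups. Leaving out knockout replicate 4 gave -0.17, 0.11 and 0.53, and a median of 0.08 for the list.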

How the data were processed

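Per the labels' protocols, RNA came from a Qiagen kit and was amplified with NuGEN Ovation reagents. The values the authors deposited are linear signal intensity from GCOS, which the submitters' processing notes name with no version. The 2% trimmed mean was 500.002 on every array, so no further scaling was applied. The array number limits the precision.

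The 64 control probe sets were left out, signals became log2(signal + 16), and probe sets under the 40th percentile of mean log2 signal were removed. The remaining 27022 entered limma 3.58.1 under R 4.3.3 (lmFit, eBayes with trend), two-sided, with Benjamini-Hochberg adjustment over all of them and a threshold of 0.05. The test was tested on simulated data. Genotype and replicate came from the titles. The brightest tested probe set stood for a gene. Probe sets were named from the platform annotation: 34945 had 1 symbol, 932 several and 9160 none. All 91 of the set matched RefSeq by gene identifier.

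The genes and lists were chosen with earlier results of these data known. Values in every sample are given for genes with an unadjusted p under 0.05, with groups that do not overlap, the 2 with the smallest p per role, and 13 preset genes; from the other pathway lists the 4 with the smallest p are named. Alternatives were other offsets, normalisations, filters, variance models, weights, 1 probe set per gene, and leaving out each array. Marker lists covered strial, root, macrophage, granulocyte, erythrocyte, endothelial, pericyte, fibrocyte, cartilage and bone, Schwann and neuron, and hair cells. Figures were drawn with matplotlib 3.10.9.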

Additional observations from a re-analysis of the deposited data

How the results depend on the processing

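No probe set of the set was called with limma under any of the 15 alternatives that included it; all 79 entered 12 of them, 78 the fit without heterozygous replicate 1, 68 the 60th percentile filter and 43 the fit with 1 probe set per gene. The smallest adjusted p of a described gene was 0.113, for Gstm2 with array weights. Over all probe sets, 1 call became 3 with quantile normalisation, 3 with median centring, 0 with no filter, 0 with a 60th percentile filter, 25 with array weights, 11 with 1 probe set per gene, and 0 to 13 when 1 array was left out (13 without knockout replicate 4). Within the set, the counts at an unadjusted p under 0.05, here over its tested probe sets, were 1 higher and 2 lower. The lower ones became 4 with quantile normalisation (beside 3.57% of all probe sets) and 1 with no variance trend (2.45%). Median centring gave 0 higher and 19 lower, where 5.22% of all probe sets were higher and 11.2% lower. Leaving out 1 array gave 1 to 5 higher (5 without knockout replicate 6, beside 13.7% of all probe sets) and 0 to 9 lower. The count of lower ones was 9 without knockout replicate 2 (beside 3.29% of all probe sets) and 7 without knockout replicate 6 (5.63%). It was 1 without knockout replicate 4 (2.18%) and 0 without heterozygous replicate 1 (2.51%) or 5 (1.03%). The genes without overlap (1 higher and 6 lower) became 2 higher with quantile normalisation, beside 4.43% of all genes. They became 0 higher and 19 lower with median centring (1.52% and 24.9% of all genes). There were 1 to 5 higher (8.43% to 14.2% of all genes) and 6 to 13 lower (9.95% to 17.0%) with 1 array left out. The median of the set, -0.11, was -0.31 with median centring, which also moved the median of all genes to -0.24, and -0.16 to -0.05 with 1 array left out. Over all 43 tested genes, 20 kept their sign in every alternative that included them and 23 did not. Among the 21 genes named by the selection rule, 6 turned. Nqo1 gave -0.030 with median centring, Cat -0.13 with it, and Sod1 -0.11 with it and -0.055 with quantile normalisation. With array weights Txnip gave 0.018 and Prdx2 0.0063. With 1 array left out, Txnip ranged from -0.070 to 0.070, Sod2 from -0.047 to 0.039 and Prdx2 from -0.063 to 0.073. Median centring shifts each array as a whole, so it lowered the difference of every gene by the same amount. The median of all genes went from -0.04 to -0.24 with it. The cause of the turns in the other settings was not tested. No paired analysis was made: the samples are numbered serially across both groups, and the labels do not say whether any were paired. With 3 arrays a group, small differences are not detectable, and genes under the filter have no measured difference.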

Other observations

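Srxn1 was 1 of few genes that stood out in heterozygous replicate 1. There, 9 of 27022 probe sets lay more than 1 log2 unit above each of the other 5 arrays, and the 4 probe sets of Srxn1 were among them. The rest were Sprr1a, a cornified envelope protein, at 9.98 times the mean of the other arrays, Mboat1 at 4.40, Inka2 at 4.35, Doc2a at 2.92 and an unnamed probe set at 2.49. The same count was 7 in knockout replicate 2, 1363 in knockout replicate 4, 9 in knockout replicate 6, 11 in heterozygous replicate 3 and 73 in heterozygous replicate 5. This count was made after the Srxn1 values were seen.

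Ptgs2, the inducible cyclooxygenase, had 167, 7.64 and 341 in knockout samples, against 45.0, 48.8 and 58.7 in heterozygous samples. Its log2 difference was 0.80 with all samples (limma adjusted p = 0.740) and 1.94 without knockout replicate 4 (limma adjusted p = 0.0827), and it was chosen after its values were seen.

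Further marker lists gave these median log2 differences with all samples and without knockout replicate 4: granulocyte -0.71 and -0.05, erythrocyte -0.55 and -0.57, endothelial -0.34 and 0.13, pericyte and smooth muscle -0.20 and 0.07, fibrocyte 0.18 and 0.23, cartilage and bone 0.97 and 1.06, Schwann cell and neuron 0.0037 and 0.03, root and sulcus -0.9963 and -1.22, intermediate -0.09 and -0.11, marginal -0.04 and -0.10, basal 0.05 and 0.04, macrophage 0.13 and 0.34, and hair cell -0.10 and -0.07, the last on 1 gene.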
